A study of Rattus norvegicus with 21 samples.

Results

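High-dose ethanol extract of Jakyakgamcho-tang (JGT) was compared with vehicle in rat PC12 cells, in 3 libraries each, so that 6 of the 21 libraries of the series enter the main test. The libraries were chosen by their titles, which give the extract, the dose class and a replicate number. PC12 is a cell line from a rat adrenal medulla tumour that makes and releases catecholamines, and the labels call it a neuronal cell. It answers nerve growth factor by leaving the cell cycle and growing neurites, which made it a standard model of neuronal signalling. JGT combines peony root with licorice root, whose best known constituents are paeoniflorin and glycyrrhizin. Extraction with ethanol generally takes up more of the less water-soluble plant compounds, such as flavonoids, than extraction with water. The treated cells received 100 µg/mL of the ethanol extract. The control cells are labelled both as vehicle and as untreated, and the exposure time was not given in the sources used here. The other 15 libraries, 3 for each lower ethanol dose (4 and 20 µg/mL) and each water extract dose (4, 20 and 100 µg/mL), are used only to place the response. The series sought transcription factors linked to JGT-related expression.

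The tables identify genes by Ensembl rat ID without names. Of 32883 IDs, 0 could be paired with a symbol in the RefSeq table used here, so the response is described through its size, the level and length of the genes in it, and 4 IDs. What these 4 genes encode, and whether the cells express the defining markers of PC12 cells, was not analysed here. Vehicle libraries held 19918513 to 23781470 expected counts in total, and high-dose ethanol libraries 17963223 to 23528245. Estimated fragment lengths were 222.7 to 234.6 bases with vehicle and 214.6 to 232.1 bases with the extract. The groups overlapped through treated replicate 2, while treated replicates 1 and 3, at 214.6 and 218 bases, lay below every vehicle library. The labels do not say whether replicates are separate cultures, so p-values cover only the variation among these libraries, and that may be technical. As in any bulk sample, fewer cells of a kind and less RNA per cell cannot be told apart.

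The high dose of ethanol extract moved many genes by a little and few by much. Of 12213 genes that averaged 1 CPM (counts scaled to a common library size) or more over the 6 libraries, 1557 rose and 1546 fell in edgeR's quasi-likelihood test (Benjamini-Hochberg adjusted p under 0.05). That is 25.4% of the genes tested, 12.7% higher and 12.7% lower. The median rise was 0.28 on the log2 scale, a 1.21-fold change, and the median change of the genes that fell was -0.26. Over all genes tested the median log2 change was 0.00404. A change of at least 1.5-fold was reached by 183 of the higher and 129 of the lower genes, or 11.8% and 8.34% of them. At least 2-fold changes were found for 37 higher genes (0.303% of those tested) and 17 lower genes (0.139%). Changes of at least 4-fold were found for 4 higher genes and 0 lower genes, and none of the 4 had whole counts in all 6 libraries, which marks reads shared with similar genes. Without vehicle replicate 3 the counts were 1032 higher and 994 lower, and without vehicle replicate 2, 57 genes were higher by 2-fold. In 1 model of all 21 libraries, 3 of which had short fragments, 292 genes were higher and 246 lower, against 1557 and 1589 in a model without those 3. Those 3 were set apart because earlier results of these data showed a wider spread in them. The higher counts without them are therefore no independent check.

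The response was present in each treated library. Over the genes tested, the median absolute log2 difference between 2 libraries was 0.0718 to 0.0906 for the 3 vehicle pairs and 0.0955 to 0.0983 for the 3 high-dose ethanol pairs. Between the groups it was 0.113 to 0.164 over the 9 pairs, so every pair across the groups differed by more than every pair within them. The first principal component of the log2 CPM values held 42.5% of the variance and placed the vehicle libraries at -17 to -15.4 and the treated libraries at 12.8 to 20.4. The second held 18.2% and separated treated replicate 1, at 17.8, from treated replicates 2 and 3, at -14.3 and -7.13. High-dose ethanol replicate 3 was the treated library nearest to vehicle on the first component. Of the 1557 higher genes, 1526 to 1542 stood above all 3 vehicle libraries in a given treated library. Of the 1546 lower genes, 1502 to 1532 stood below all 3. These shares follow from how the genes were called and are a description. Over all 12213 genes, the 3 treated libraries lay wholly above the vehicle libraries for 2440 genes (20%) and wholly below for 2431 (19.9%), or 39.9% in all.

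**Figure D1:**
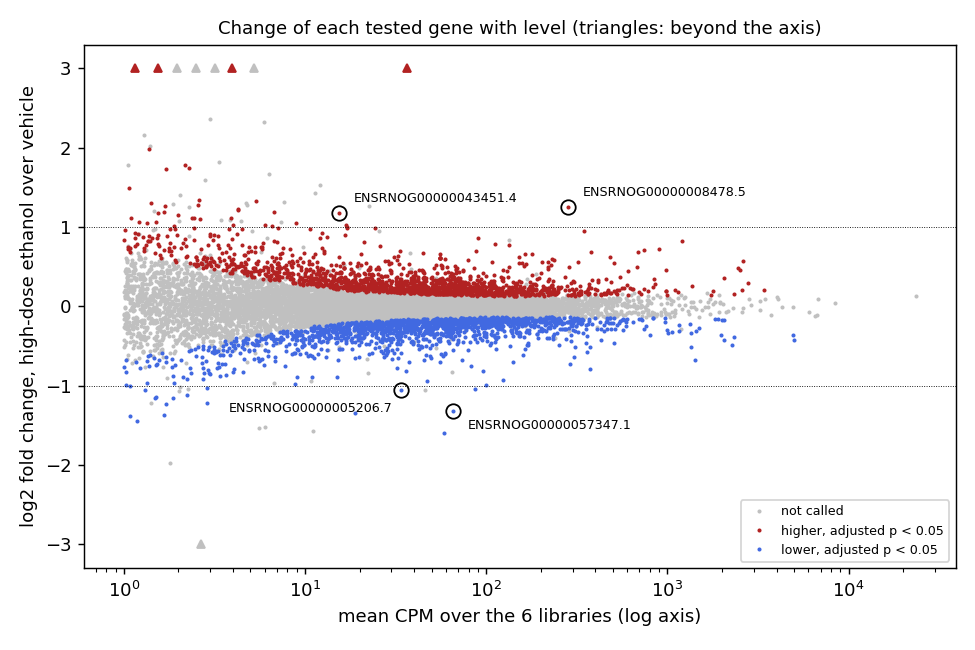
Log2 fold change of high-dose ethanol extract over vehicle (vertical axis) against mean CPM over the 6 libraries (horizontal log axis), with 1 point per tested gene. Red and blue points passed an adjusted p of 0.05 as higher or lower, grey points did not. Triangles lie beyond the axis and dotted lines mark 2-fold. Circles mark the 4 named IDs, which lie beyond 2-fold and were required to average at least 10 CPM over the 6 libraries.

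The 2-fold changes were mostly among weakly expressed genes. In the class with a mean under 3 CPM, 22 higher and 12 lower genes passed 2-fold, while only 5 higher and 5 lower genes did so among all genes of at least 10 CPM. With counts whole in all 6 libraries as well, 4 higher and 3 lower genes were left. Strongly expressed genes were called more often. The share called rose from 12.9% of 1205 genes under 3 CPM to 35.7% of 512 genes at 300 CPM and over. The median absolute log2 change of the called genes fell from 0.77 to 0.21 between these classes. The median standard error over all genes fell from 0.217 to 0.0539, and a gene with a larger standard error needs a larger change to be called. Under 3 CPM the called genes leaned to the higher side, 97 against 58, and at 100 to 300 CPM to the lower side, 237 against 310.

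Levels of different genes were compared by the authors' TPM values, which correct for length. Of the 100 genes with the highest mean TPM, which held 35.7% of all TPM, 19 rose and 12 fell. The log2 changes in this set ran from -0.49 to 0.83. Of the top 10, which held 15.2% of all TPM, 1 rose and 1 fell, with changes from -0.23 to 0.57 over the 10. The called shares were 31% of the top 100 and 20% of the top 10, beside 25.4% of all genes tested. The 1557 higher genes together held 13.7 to 14.1% of TPM in the vehicle libraries and 16.2 to 17.8% in the treated ones. The 1546 lower genes held 15.1 to 15.4% with vehicle and 12.5 to 12.8% with the extract. In both sets the ranges of the groups did not overlap, as their selection implies.

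Long genes fell more often than they rose. Of 2056 genes with a mean RSEM length of at least 4000 bases, 436 fell (21.2%) and 182 rose (8.85%). Of 3963 genes of 1000 to 2000 bases, 392 fell (9.89%) and 581 rose (14.7%). The median length was 2051 bases among genes that rose, 2666 bases among genes that fell and 2219 bases in the whole tested set. These lengths are averages over a gene's transcripts weighted by their estimated levels. With the fragment length of each library in the model, the medians were 2049 and 2704 bases. With effective length offsets they were 2102 and 2619 bases. Without vehicle replicate 1 they were 2131 and 2403 bases, so the gap was narrower without that library. Genes with 1 annotated transcript were called in 25% of cases and genes with 3 or more in 27.1%.

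**Figure D2:**
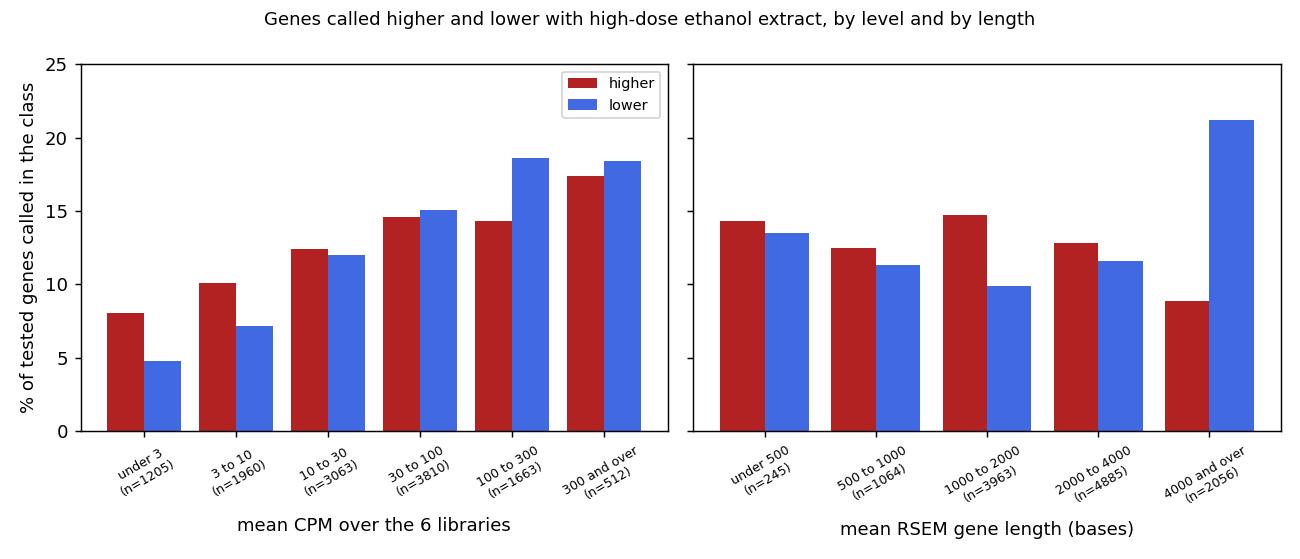
Share of tested genes called higher (red) and lower (blue) at an adjusted p under 0.05, by mean CPM (left) and by mean RSEM length in bases (right), with the number of genes tested under each class. Shares are lowest under 3 CPM on both sides (8.05% and 4.81%), and in genes of 4000 bases and over the lower genes (21.2%) outnumber the higher ones (8.85%).

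The proportions of a gene's transcripts were followed through its RSEM length. The RSEM length of a gene changes when its long and short transcripts change in proportion, so it was compared between the groups with limma for 2670 genes with several transcripts and at least 10 CPM. With an adjusted p under 0.05, 1 gene became longer and 5 became shorter, which is 0.225% of those tested. Without adjustment 343 of the 2670 had a limma p under 0.05. That is a larger share than the 0.05 expected if no length changed, so smaller shifts may have been missed. The median size of the 6 shifts was 0.0432 on the log2 scale.

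Well-expressed genes with whole counts can be followed with less uncertainty from shared reads. Among the called genes, 1035 higher and 1144 lower ones had at least 10 CPM, whole counts in all 6 libraries and groups that did not overlap. The 2 that rose most and the 2 that fell most on the log2 scale are described with their values in every library. The next in order stood at 1.03 and -1.04. All CPM values of these IDs use 1 scaling over the 21 libraries.

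ENSRNOG00000008478.5 stood at 170.2, 187.6 and 150.9 CPM in vehicle replicates 1 to 3 and at 404.1, 434.2 and 374 CPM in the high-dose ethanol replicates. Every treated library was at nearly 2 times the level of the highest vehicle library or more. The gene rose 2.38-fold, by 1.25 ± 0.0751 on the log2 scale (SE, n = 3 each; edgeR adjusted p = 1.02e-07). It has 1 annotated transcript of 2602 bases, and its TPM of 92.3 ± 10.8 with vehicle and 219.7 ± 17.1 with the extract (SD, n = 3 each) put its mean above that of 92% of the genes tested. Its counts were 2958 to 4422 per vehicle library and 7207 to 8694 per treated library.

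The second higher ID was weaker. ENSRNOG00000043451.4 had 9.81, 10.8 and 7.81 CPM in the vehicle libraries and 22.1, 25.3 and 17.6 CPM in the treated ones. Its vehicle mean was 9.46 CPM, so it reached the naming minimum of 10 CPM only through the treated libraries. The lowest treated library, replicate 3, was above the highest vehicle library, as naming required. Its log2 change was 1.18 ± 0.162 (SE, n = 3 each; edgeR adjusted p = 0.00158), a 2.27-fold rise. The gene has 2 annotated transcripts with a mean length of 1465 bases, and its RSEM length did not pass a test of change (limma adjusted p = 0.829). Its mean TPM was 9.89 with vehicle and 22.5 with the extract, near the middle of the genes tested. It was counted 153 to 254 times per vehicle library and 394 to 501 times per treated library.

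ENSRNOG00000057347.1 had the larger fall and the wider spread. It stood at 85.5, 77.2 and 122.3 CPM with vehicle and at 38.8, 43.6 and 31.9 CPM with the extract. Vehicle replicate 3 lay well above the other vehicle libraries, and the groups did not overlap, as naming required. The gene fell to 0.401 times its vehicle level, a log2 change of -1.32 ± 0.248 (SE, n = 3 each; edgeR adjusted p = 0.0269). It has 1 annotated transcript of 1396 bases and a mean of 104.8 TPM with vehicle and 42 TPM with the extract. It no longer passed when vehicle replicate 1 was left out (edgeR adjusted p = 0.0703), or treated replicate 1, 2 or 3 (edgeR adjusted p = 0.0926, 0.0711 and 0.0756). In these fits its log2 change was -1.43 to -1.20.

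ENSRNOG00000005206.7 stood at 46.2, 48.6 and 43.7 CPM with vehicle and at 18.9, 22 and 25.2 CPM with the extract. Its vehicle libraries were close together and all treated libraries were far below them. The log2 change was -1.06 ± 0.0802 (SE, n = 3 each; edgeR adjusted p = 2.55e-08), a fall to 0.481 times the vehicle level. The gene has 2 annotated transcripts with a mean length of 2359 bases, and its RSEM length did not pass a test of change (limma adjusted p = 0.941). Its mean TPM was 28 with vehicle and 13.3 with the extract.

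**Figure D3:**
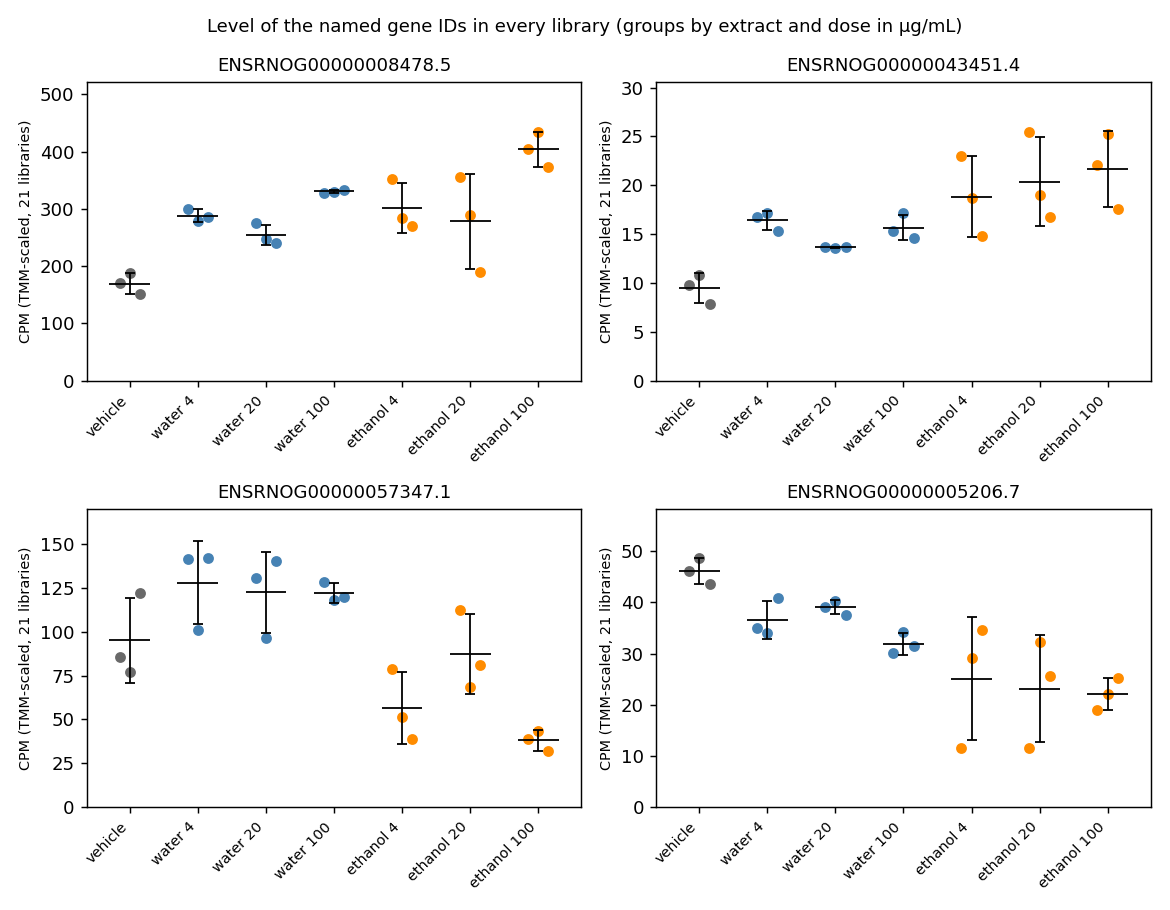
Level of the 4 named IDs in CPM (vertical axes from 0) in every library, by group on the horizontal axes (extract and dose in µg/mL). Points are libraries in the order of replicates 1 to 3, horizontal lines are group means and error bars are SDs (n = 3). In each panel the 3 high-dose ethanol libraries lie wholly above or wholly below the vehicle libraries, as the naming of these IDs required.

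The 100 µg/mL dose of both extracts was compared directly, without the vehicle libraries, to count the genes that differ between the extracts. Of 12231 genes tested, 374 stood higher and 391 lower under ethanol extract (edgeR, Benjamini-Hochberg adjusted p under 0.05), or 6.25% in all (3.06% and 3.2%). At least 2-fold differences were found for 4 higher (0.0327%) and 8 lower genes (0.0654%). Over all genes that passed, the count of 765 fell to 224 without water replicate 2, 232 without ethanol replicate 1 and 161 without ethanol replicate 2. It was 6 in 1 model of all 21 libraries and 1649 in a model of 18, without the 3 that had short fragments. As those 3 were set apart for their wider spread, the larger count is no independent check. Fitted alone against the same vehicle libraries, the water extract gave 191 higher (1.57%) and 237 lower genes (1.94%), or 3.51% of 12193.

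The 4 IDs were named for their large changes between vehicle and the high-dose ethanol libraries, so any comparison that reuses either of these groups is affected by that choice. Their values with the water extract and at the lower ethanol doses are therefore given here as a description, without p-values. ENSRNOG00000057347.1 had 128.5, 117.9 and 119.8 CPM in the high-dose water libraries, all above every high-dose ethanol library. Its log2 difference, ethanol minus water, was -1.68 ± 0.0946 (SE, n = 3 each), and water minus vehicle was 0.36 ± 0.198. The water libraries overlapped the range of the vehicle libraries.

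The other 3 IDs lay between vehicle and high-dose ethanol in the high-dose water libraries. ENSRNOG00000008478.5 stood at 328.5 to 333.2 CPM there, with a log2 difference of 0.96 ± 0.0652 from vehicle and an ethanol minus water difference of 0.29 ± 0.0578 (SE, n = 3 each). ENSRNOG00000005206.7 stood at 30.1 to 34.2 CPM with water, -0.53 ± 0.0654 from vehicle on the log2 scale, and ethanol minus water was -0.53 ± 0.0918 (SE, n = 3 each). For both, the 3 water libraries overlapped neither of the other groups. ENSRNOG00000043451.4 stood at 14.6 to 17.1 CPM with water, 0.72 ± 0.106 from vehicle on the log2 scale, and ethanol minus water was 0.46 ± 0.121 (SE, n = 3 each). Its highest water library, at 17.1 CPM, was just below its lowest high-dose ethanol library, at 17.6 CPM.

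Levels at the lower ethanol doses rest in part on libraries that stand apart. Replicate 1 at 4 µg/mL and replicates 2 and 3 at 20 µg/mL had shorter fragments, of 179.7 to 203.5 bases. The other 18 libraries had 206.4 to 241.8 bases. Totals were 8344416 to 14918515 expected counts in these 3, against 15005249 or more in the other 18. Neither measure left a wide gap, and the 3 were set apart for their wider spread. In a fit of the other 18 libraries, where 2 low-dose libraries remained, the high dose exceeded the low dose in 42 genes and lay below it in 42 (0.342% each, 0.684% of 12285 in all, edgeR with Benjamini-Hochberg adjustment). In that fit ENSRNOG00000008478.5 differed between high and low dose by 0.55 ± 0.0743 on the log2 scale (SE). Its low-dose libraries stood at 351.9, 284.7 and 269.4 CPM, and its medium-dose libraries at 355.1, 289.6 and 189.5 CPM. For ENSRNOG00000005206.7 the difference was -0.53 ± 0.102 (SE). Its low-dose libraries stood at 11.6, 29.2 and 34.6 CPM, and the first of these, which was not in that fit, lay below every high-dose library. At the medium dose it stood at 11.6, 32.2 and 25.6 CPM. Medium-dose replicate 1, which is not among the libraries with short fragments, also lay below every high-dose library.

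For ENSRNOG00000043451.4 the log2 difference was 0.37 ± 0.138 (SE), with low-dose values of 14.8 to 23 CPM. Its medium-dose libraries stood at 25.45, 18.97 and 16.74 CPM, and the first of these was just above the highest high-dose library, at 25.27 CPM. For ENSRNOG00000057347.1 it was -0.24 ± 0.263 (SE), with 78.9, 51.3 and 38.8 CPM at the low dose. At the medium dose this ID stood at 112.6, 68.4 and 80.9 CPM, above all 3 high-dose libraries and overlapping vehicle. Its levels therefore did not fall steadily with the dose, with the reservation that 2 of the 3 medium-dose libraries are among those with short fragments.

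The whole set of called genes was also followed in the 15 libraries that had no part in calling them. For each library the median log2 deviation from the mean of all 21 libraries was taken over the 1557 higher genes, and the same over the 1546 lower genes was subtracted. This difference was -0.32 to -0.26 with vehicle and 0.17 to 0.32 with high-dose ethanol, which the choice of genes fixes. In the low-dose ethanol libraries it was 0.0703, 0.139 and 0.276, and in the low-dose water libraries -0.069, -0.0274 and 0.0886. In the medium-dose ethanol libraries it was -0.0227, 0.0353 and 0.182, and in the medium-dose water libraries -0.164, -0.105 and -0.0933. The high-dose water libraries stood at -0.16, -0.0611 and -0.0389. At the medium dose every ethanol library stood above every water library, while at the low dose the lowest ethanol value lay under the highest water value. The medians at the low, medium and high dose were 0.139, 0.0353 and 0.297 for ethanol, and -0.0274, -0.105 and -0.0611 for water. In neither extract did they run steadily with the dose. All 15 libraries stood above every vehicle library. How far these genes separate vehicle from any treatment was not tested. The 3 libraries with short fragments are the low-dose one at 0.276 and the medium-dose ones at -0.0227 and 0.0353, and the part of fragment length in these values was not tested.

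**Figure D4:**
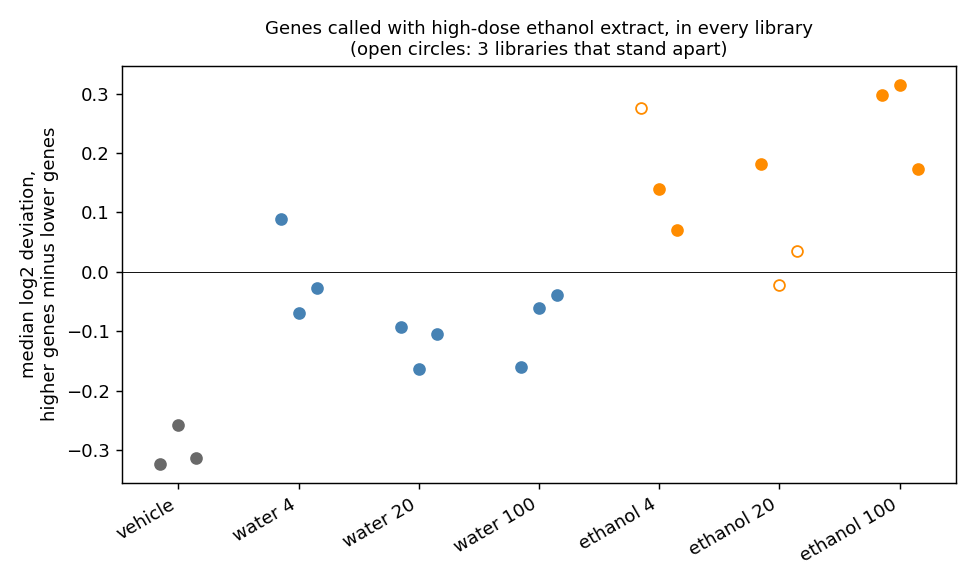
Median log2 deviation from the mean of the 21 libraries over the genes called higher, minus that over the genes called lower (vertical axis), for each library by group (extract and dose in µg/mL, horizontal axis). Open circles are the 3 libraries with short fragments; the vehicle and high-dose ethanol libraries chose the genes, and among the others the water libraries lie between -0.164 and 0.0886 and the ethanol libraries between -0.0227 and 0.276.

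Few genes had counts in every library of 1 group and in none of the other. Counts were 0 in all vehicle libraries and above 0 in all high-dose ethanol libraries for 32 genes, and 2 of these reached a mean of 1 CPM, which they could do only through the treated libraries. The reverse held for 30 genes, of which 0 reached a mean of 1 CPM. The minimum of 1 CPM left out 5993 genes with at least 1 count, and 107 genes lay just under it at 0.9 to 1 CPM against 110 just above it at 1 to 1.1 CPM.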

How the data were processed

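Messenger RNA libraries were made from total RNA with a directional kit, per the labels' protocols. The authors deposited expected counts per gene from RSEM, not normalized, with TPM values and gene lengths, per the file headers. The submitters' processing notes list RSEM 1.3.3, and no source used here gave the genome build, the annotation or the strand setting. Rounded expected counts of the 6 libraries were fitted with edgeR 4.0.16 (R 4.3.3; quasi-likelihood F test, robust, TMM) wherever the mean over them reached 1 CPM, and calls needed a Benjamini-Hochberg adjusted p under 0.05. Fitting these 6 libraries alone kept the spread of other groups out of the test. A standard error is the absolute log2 change divided by the square root of F. TMM-scaled log2 CPM used a prior count of 2. Fragment length is 1 plus the median gap between gene length and effective length among genes of 1000 bases or more. A count within 0.01 of a whole number in all 6 libraries is called whole. IDs were named as the 2 largest log2 changes each way among called genes of at least 10 CPM with whole counts and groups that did not overlap; a longer list applied only to genes with a symbol. The lists of pathway and cell type marker genes drawn up from symbols could not be applied, since 0 of 32883 IDs paired with a symbol among 47357 RefSeq genes (GRCr8). Members, lists and tests were chosen with earlier results of these data known. The test was checked on simulated data. These were drawn with the spread that edgeR itself estimated and with fewer changed genes than were called here. Chi-square per degree of freedom between libraries of 1 group ran from 2.96 to 6.11, above sampling noise in each pair. Alternatives used DESeq2 1.42.0 and limma 3.58.1 among other settings. The test of RSEM length, the comparison of high with low ethanol dose and the fit of only genes with whole counts were added after the data were seen.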

Additional observations from a re-analysis of the deposited data

Results flagged for a closer look

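The 4 named IDs stood apart between the extracts when high-dose ethanol was set directly against high-dose water, with a log2 difference of 0.29 for ENSRNOG00000008478.5, 0.46 for ENSRNOG00000043451.4, -1.68 for ENSRNOG00000057347.1 and -0.53 for ENSRNOG00000005206.7. The IDs were chosen for large changes in the same high-dose ethanol libraries, which favours these differences, so they are a description and not independent evidence. Over 16 settings each, all with the same chosen IDs, they ran from 0.235 to 0.34, from 0.33 to 0.59, from -1.79 to -1.56 and from -0.64 to -0.44. Of the 4, 3 did not pass in the model of all 21 libraries (edgeR adjusted p = 0.508 for ENSRNOG00000008478.5, 0.291 for ENSRNOG00000043451.4 and 0.549 for ENSRNOG00000005206.7). ENSRNOG00000043451.4 had an edgeR adjusted p of 0.0494 in the main fit. It also did not pass with limma-voom (adjusted p = 0.0617), with effective length offsets (edgeR adjusted p = 0.0561) or in 5 of 6 fits without 1 library. ENSRNOG00000008478.5 did not pass in 3 of 6 such fits. ENSRNOG00000057347.1 and ENSRNOG00000005206.7 passed in all 6. The choice of IDs favours such passes, so they are no evidence that the extracts differ.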

How the results depend on the processing

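With all 21 libraries in 1 model, 292 genes were higher and 246 lower than vehicle and 6 genes differed between the extracts. With 18 libraries, without the 3 with short fragments, which were set apart for their wider spread, these counts were 1557, 1589 and 1649. Of the 538 calls with 21 libraries, 533 were among the 3103. With no filter on low counts, 105 genes were higher and 56 lower by 2-fold and 1212 differed between extracts; with edgeR's own filter 67 and 27 passed 2-fold. With only genes of whole counts 11 were lower by 2-fold. Leaving out 1 library gave 1032 to 1583 higher and 994 to 1594 lower genes, 29 to 57 and 17 to 28 at 2-fold (57 without vehicle replicate 2, 27 and 28 without ethanol replicates 2 and 3), and 161 to 1043 between extracts. In all 6 such fits and the fit of 6 libraries, 764 genes were higher and 734 lower. Of the genes called against vehicle both here and in an alternative, 0 turned direction in any of the alternatives run. The alternatives share these libraries, so this could hardly come out otherwise and is no independent check. Correlations between the deviations of same-numbered libraries were -0.0354, 0.11 and 0.00709, beside -0.0984 to 0.0848 for the other pairs. These values do not settle whether replicates are paired. With the replicate block 1681 genes were higher, 1655 lower and 1122 different between extracts, and ENSRNOG00000057347.1 had an edgeR adjusted p of 0.127. Over all its settings that ID had an adjusted p from 3.06e-06 to 0.127. The alternatives for the gene lists were not run, as no list could be applied.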
